A study of Mus musculus with 224 samples.

Results

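Soleus, a slow-twitch calf muscle used for posture, was compared between day 33 and day 5 in mice fed regular chow (RC). Members were chosen by label: all soleus libraries on RC from these days were taken, except 1 library of day 33 that carried the levels of a fast muscle. This left 23 of the 72 soleus libraries of the series, which has 216 libraries with a table column over liver, soleus and visceral adipose tissue. On day 33 there were 3 C57Bl/6J, 4 DBA/2J and 4 BALB/cJ mice, and on day 5 there were 4 mice of each of these inbred strains. No allele, agent or surgery is named in the labels for either day, and both days share the chow diet. The labels give no age or sex, so time on the study and age cannot be told apart. The sample labels name the last day as 33 while the design text repeats 13, and the sample labels were followed. Animals on a high-fat diet (HFD) of the same strains and days, 12 on day 33 and 12 on day 5, served as the most similar comparison.

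Skeletal muscle fibres lie in a sheath of connective tissue made largely of fibrillar collagens, laid on a basement membrane of type IV collagen. Fibroblasts secrete most of this matrix, and its synthesis is high in growing muscle and lower in mature muscle. A set of imprinted genes, transcribed from 1 parental copy, is active in young tissues and is turned down after birth. Muscle fibres also secrete peptides, among them osteocrin and interleukin 15.

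Libraries held 25243100 to 33370000 reads on day 33 (n = 11) and 22418700 to 30674700 reads on day 5 (n = 12), as recovered from the values. Levels are log2 CPM, the log2 of reads scaled to a common library size, and they compare a gene across animals, not genes of different length. The slow fibre myosin Myh7 stood at 12.18 to 13.51 log2 CPM on day 33 and at 12.11 to 13.55 on day 5, so this marker of slow muscle was present in all 23 libraries. The slow fibre troponin Tnni1 stood at 9.94 to 11.11 on day 33 and at 9.84 to 11.06 on day 5. The library left out, C57Bl/6J day 33 replicate 1, had Myh7 at 6.20, the fast fibre myosin Myh4 at 15.62 and the fast fibre calcium buffer Pvalb at 13.55. Among the other animals Myh4 reached at most 11.83 on day 33 and 10.71 on day 5. That library was left out because of these measured levels, and counts with it are given beside the results.

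Of 13637 genes tested, 264 (1.94%) differed between day 33 and day 5 at a limma adjusted p under 0.05, with the 3 strains weighted equally. On day 33, 137 genes (1%) were higher and 127 (0.931%) were lower. Among genes of at least median level with 1 sign in all strains, the leading ones were Cyfip2, Ostn and Tsga10 on the higher side and Col1a1, Col3a1 and Col5a1 on the lower side. Of these, 132 of the higher and 122 of the lower genes had 1 sign in all 3 strains. With the left-out library kept, 389 genes passed, 173 higher and 216 lower, of which 198 were among the 264. The count also depended on single animals. It was 732 without DBA/2J day 5 replicate 4, and between 152 and 173 without any 1 of C57Bl/6J day 5 replicates 1 and 4, C57Bl/6J day 33 replicate 3, DBA/2J day 5 replicates 2 and 3, and DBA/2J day 33 replicate 1. The animals carry numbers in 3 ranges whose meaning the labels do not give. The lowest range holds no C57Bl/6J animal of day 5, so within it only DBA/2J and BALB/cJ could be compared, and 7 animals of day 33 and 7 of day 5 gave 129 genes. That fit changes the range, the strains and the number of animals together.

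**Figure D1:**
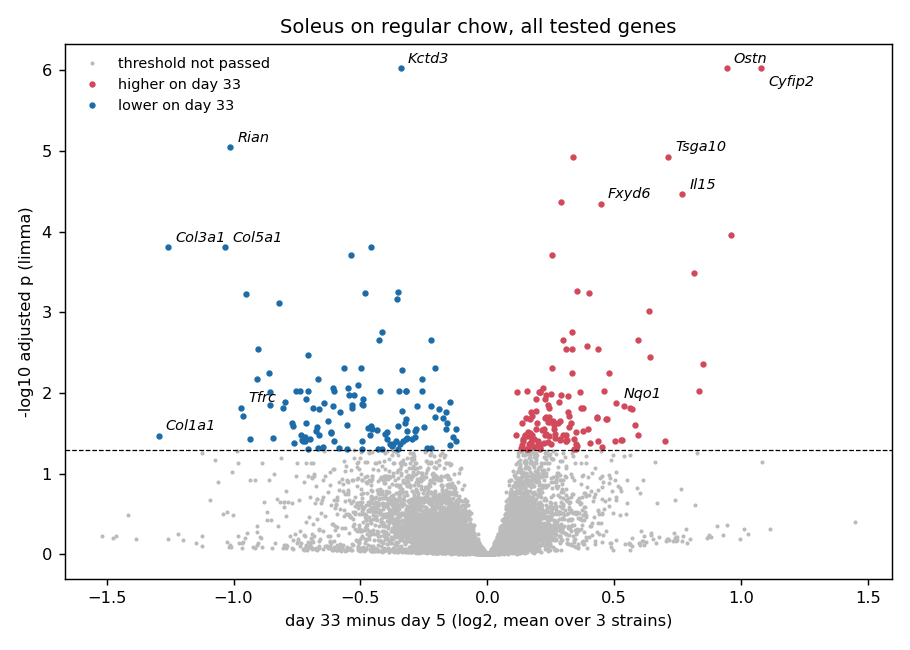
Log2 difference of day 33 minus day 5 on regular chow (horizontal) against -log10 of the limma adjusted p (vertical) for all 13637 tested genes, with genes higher on day 33 in red and lower in blue. The dashed line is the threshold of 0.05, passed by 137 higher and 127 lower genes, and the lower side reaches -1.30 for Col1a1.

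Cyfip2 (ENSMUSG00000020340.16, chromosome 11, 46193850 to 46312859, GRCm38), a subunit of the WAVE complex that starts actin branching, had the highest increase. Its level was 5.67, 6.02 and 6.77 log2 CPM (lowest, median and highest of 11 animals) on day 33, and 3.77, 5.30 and 6.01 (12 animals) on day 5. Day 33 was 2.11-fold higher (log2 difference 1.08 ± 0.14, SE, limma adjusted p = 9.4e-07). The days did not overlap in DBA/2J or BALB/cJ, where the log2 differences were 1.58 and 1.07, and overlapped by 1 animal pair in C57Bl/6J (0.59). On HFD the difference was 1.21 ± 0.14 (SE). Genes named by size or p were picked from these same values, so a lack of overlap is no separate support, here or below. The share of all genes without overlap in only some of the strains was not counted.

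Ostn (ENSMUSG00000052276.8, chromosome 16, 27307489 to 27351212) encodes osteocrin, a secreted muscle peptide that binds the natriuretic peptide clearance receptor. It stood at 4.02, 5.14 and 5.47 log2 CPM on day 33 and at 2.94, 4.26 and 5.00 on day 5 (lowest, median, highest). The log2 difference was 0.94 ± 0.12 (SE, limma adjusted p = 9.4e-07), with no overlap of the days in C57Bl/6J or BALB/cJ. BALB/cJ animals were the lowest on both days and had the largest strain difference, 1.29. In DBA/2J, 1 animal of day 5 (replicate 4, 5.00) lay at the low end of the day 33 range.

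Tsga10, named for its expression in testis, stood at 3.80, 4.10 and 5.17 log2 CPM on day 33 and at 3.11, 3.75 and 4.55 on day 5. The log2 difference was 0.71 ± 0.10 (SE, limma adjusted p = 1.17e-05), and the days did not overlap within any strain. Il15, the interleukin that muscle secretes and that sustains natural killer cells, stood at 1.67, 2.74 and 2.95 on day 33 and at 0.75, 1.90 and 2.44 on day 5. Its log2 difference was 0.77 ± 0.12 (SE, limma adjusted p = 3.41e-05), again with no overlap within a strain. On day 13 the mean of Il15 over strains was 1.57, with a log2 difference of 0.93 between day 13 and day 33 and of -0.16 between day 5 and day 13. Tsga10 had the other order in time, with 0.74 between day 5 and day 13 and -0.03 after it. Of 16 measured members of the list of myokines and exercise-responsive regulators, Il15 was the 1 that passed, against 1.94% of all genes. The list's median log2 difference was 0.04.

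The other genes named for an increase had log2 differences of 0.39 to 0.51. Fxyd6, a regulator of the sodium pump, was 1.36-fold higher (0.45 ± 0.07, SE, limma adjusted p = 4.47e-05). It stood at 7.75, 7.96 and 8.42 log2 CPM on day 33 and at 7.13, 7.48 and 8.09 on day 5. Car2, a carbonic anhydrase, rose by 0.44 and Hook1, a microtubule linker, by 0.39. Nqo1, a quinone reductase of the oxidative stress response, rose by 0.51, and Gabarapl1, which coats autophagosomes, by 0.46. Amy1, a starch-cleaving amylase, rose by 0.47 on day 33, but shares 32.7% of its annotated exon bases with Rnpc3 on the same strand, so reads of the pair may not be separable. Gabarapl1 shares 28.3% of its exon bases with 1700101I11Rik on the opposite strand, and the strand setting of the read counter was not given in the sources used here. Pcp4l1, a relative of a calmodulin-binding peptide, rose by 0.50 (limma adjusted p = 0.0387) but lost the threshold in 14 of the 23 fits that each left out 1 animal.

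**Figure D2:**
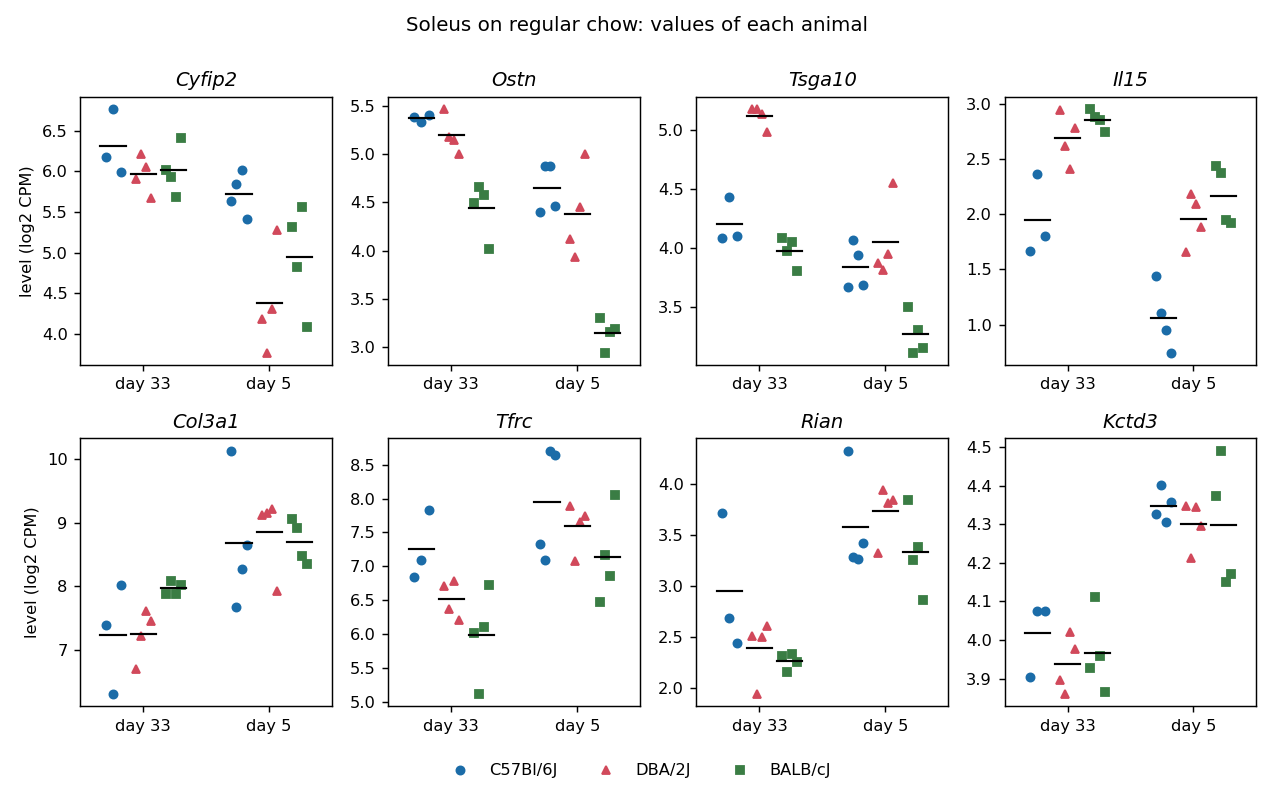
Log2 CPM (vertical) of 8 genes in each soleus library on regular chow, day 33 left and day 5 right in each panel, with strains by colour and marker and their means as black bars. Kctd3 is lower in all 11 animals of day 33 (3.86 to 4.11) than in all 12 of day 5 (4.15 to 4.49), and Il15 is higher on day 33 within each strain.

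Collagen and matrix genes were lower on day 33. Of the 34 members of that list, all measured, 16 passed the test in the lower direction and 0 in the higher, against 0.931% of all genes lower. The median log2 difference of the list was -0.70, against -0.003 over all tested genes, and all 34 differences were below 0. The members that passed were Col1a1, Col3a1, Col4a1, Col4a2, Col5a1, Col5a2, Col5a3, Col6a1, Col6a2, Col6a3, Col15a1, Eln, Fbn1, Mfap2, Sparc and Lamb1. C57Bl/6J had a median of -0.93, DBA/2J of -0.86 and BALB/cJ of -0.24. With only the compared animals in the fit 5 members passed, and with each animal weighted equally 5 did. Over all genes these fits also called fewer than the 264 of the main fit. Col1a1, Col5a2, Fbn1, Col6a3, Col6a2, Sparc, Col4a1 and Col4a2 lost the threshold in both of these fits.

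The promoters of a pair of these collagens are printed below, because their transcripts fell together on day 33. They are the 250 bases before the RefSeq transcript start (GRCm38.p6, plus strand, 5′ to 3′). Capitals mark TATAAA or GGGCGG, searched with CCAAT on both strands with no overlap among the matches.
Col3a1, chr1:45311288-45311537: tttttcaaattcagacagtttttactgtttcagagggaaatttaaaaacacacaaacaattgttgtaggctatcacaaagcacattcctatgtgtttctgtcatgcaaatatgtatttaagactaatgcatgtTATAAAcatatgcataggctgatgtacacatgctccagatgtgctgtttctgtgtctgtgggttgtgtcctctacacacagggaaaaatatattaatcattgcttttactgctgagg
Col5a1, chr2:27886175-27886424: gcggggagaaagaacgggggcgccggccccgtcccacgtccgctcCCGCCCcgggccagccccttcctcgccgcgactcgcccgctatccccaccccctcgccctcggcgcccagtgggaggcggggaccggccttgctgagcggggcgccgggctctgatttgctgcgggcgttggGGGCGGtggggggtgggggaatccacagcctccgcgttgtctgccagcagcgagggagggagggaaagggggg
Col3a1 has 1 TATAAA, and Col5a1 has GGGCGG once in each orientation. Of all 32851 windows of this length, 12.4% hold TATAAA, 32.7% hold GGGCGG and 33.8% hold CCAAT. Among the 24 collagen and matrix genes with a window, 3 hold TATAAA, 16 hold GGGCGG and 9 hold CCAAT. These matches describe letters only.

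Col3a1 (ENSMUSG00000026043.18, chromosome 1, 45311538 to 45349706), the fibrillar collagen of compliant tissues, stood at 6.31, 7.61 and 8.08 log2 CPM on day 33 and at 7.67, 8.78 and 10.13 on day 5 (lowest, median, highest). Day 33 was 2.39-fold lower (log2 difference -1.26 ± 0.21, SE, limma adjusted p = 1.54e-04). Within C57Bl/6J and DBA/2J the log2 differences were -1.44 and -1.60, and in BALB/cJ -0.73. In DBA/2J the day 5 animals stood at 9.11, 9.15 and 9.22 with 1 animal, replicate 4, at 7.93, while all 4 of day 33 stood between 6.71 and 7.61. The days therefore did not overlap in DBA/2J or BALB/cJ.

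Col1a1 (ENSMUSG00000001506.10, chromosome 11, 94936224 to 94953042), a chain of the main fibrillar collagen, stood at 5.67, 8.30 and 8.84 log2 CPM on day 33 and at 6.99, 9.69 and 10.79 on day 5. The days overlapped in every strain, and the log2 difference was -1.30 ± 0.35 (SE, limma adjusted p = 0.0335). The threshold was lost in 10 of the 23 fits that each left out 1 animal, with the difference between -1.59 and -0.95. Col1a2, the other chain of type I collagen, had a log2 difference of -1.12 that did not pass (limma adjusted p = 0.0548).

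Minor fibrillar chains, which set fibril width, passed with smaller errors. Col5a1 fell by 1.03, Col5a2 by 0.90 and Col5a3 by 0.86 on the log2 scale. Col5a1 stood at 3.99, 4.83 and 5.38 log2 CPM on day 33 and at 4.85, 5.96 and 7.19 on day 5 (limma adjusted p = 1.54e-04). Among the other matrix parts, elastin (Eln) fell by 0.82 (limma adjusted p = 7.54e-04), fibrillin 1 (Fbn1), the scaffold of elastic fibres, by 0.86, and the matrix-binding protein Sparc by 0.71. Col6a3 and Col6a2, chains of the type VI collagen around fibres, fell by 0.80 and 0.73. Fbn1, Col6a3 and Sparc lost the threshold without C57Bl/6J day 33 replicate 3 (adjusted p = 0.0547, 0.0583 and 0.0552), and Col6a2 lost it in 13 of the 23 fits.

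Enzymes and chaperones of collagen processing had the same direction, with fewer members past the threshold. Of 23 measured, 5 were lower and 0 higher, against 0.931% of all genes lower, with a median log2 difference of -0.45. Adamts2, which cuts the amino-terminal propeptide off procollagen, fell by 0.71 (limma adjusted p = 0.00332), and Serpinh1, the collagen chaperone of the endoplasmic reticulum, by 0.49 (limma adjusted p = 0.0135). Loxl2, a lysyl oxidase that crosslinks collagen, fell by 0.72 and the prolyl hydroxylase P3h1 by 0.29, and they lost the threshold in 12 and 13 of the 23 fits. Loxl1 was the other member past the threshold (-0.49).

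**Figure D3:**
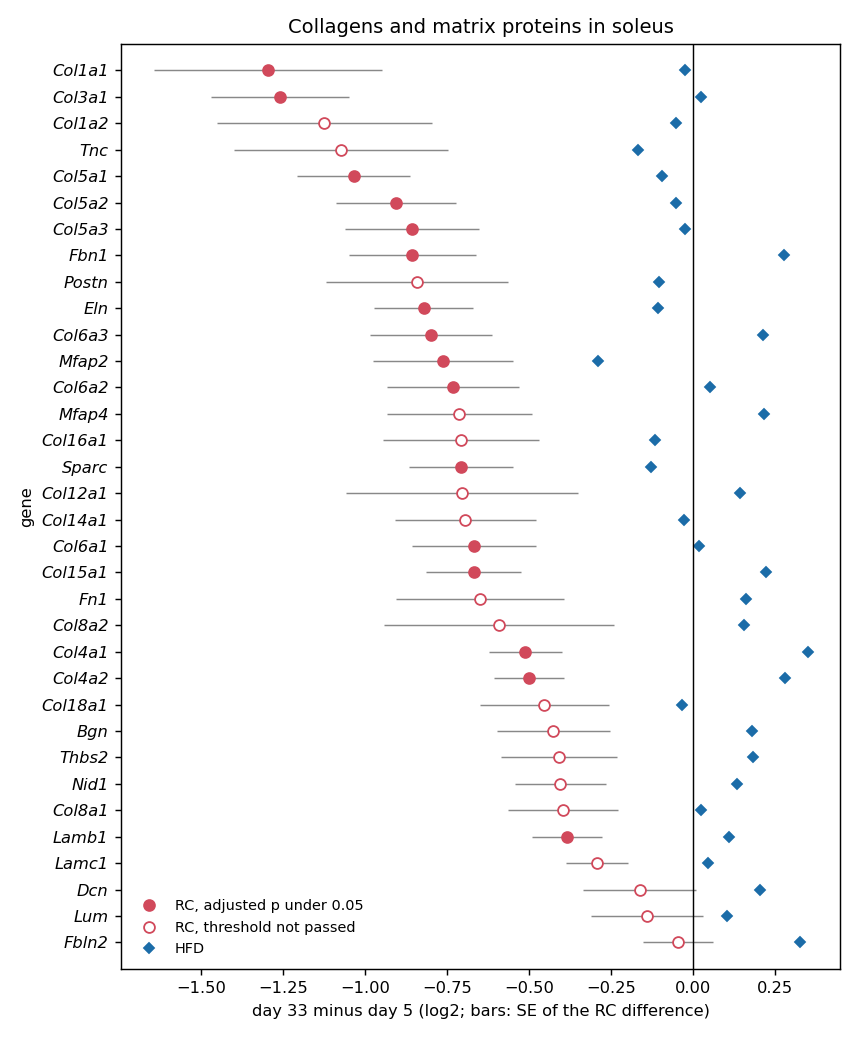
Log2 difference of day 33 minus day 5 (horizontal) for the 34 collagen and matrix genes, on regular chow in red with standard errors and on high-fat diet as blue diamonds. Filled red points passed the threshold on regular chow (16 genes), and all red points lie below 0, while the blue ones lie on both sides of 0 with a median of 0.05.

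Tendon and cartilage markers and fibroblast markers were lower beside the matrix genes in their medians, and in bulk tissue fewer cells of a type and less RNA per cell cannot be told apart. None of 11 measured tendon and cartilage markers passed, but all 11 differences were below 0, with a median of -0.66. At an unadjusted p under 0.05 there were 3. C57Bl/6J had a tendon median of -1.14 and DBA/2J of -0.94, while BALB/cJ had 0.24 beside its matrix median of -0.24. Their summed level was 69.3 to 969 CPM on day 33 (median 673) and 75.6 to 1403 CPM on day 5 (median 934). All 10 fibroblast markers were below 0 without passing (median -0.27), with sums of 486 to 1493 CPM on day 33 and 468 to 1691 CPM on day 5. In 3 of the 23 libraries the tendon sum was under 200 CPM: C57Bl/6J day 33 replicate 3, DBA/2J day 33 replicate 1 and DBA/2J day 5 replicate 4. These libraries also had the lowest summed collagen and matrix level of their groups, 1396, 1971 and 2181 CPM. With them and 2 further such libraries of other groups left out, 19 of the 34 matrix genes passed in the lower direction and the median was -0.60. With only DBA/2J day 5 replicate 4 left out, 29 passed, and with only C57Bl/6J day 33 replicate 3 left out, 8 passed. In the DBA/2J and BALB/cJ animals of the lowest number range, without C57Bl/6J, 4 passed with a median of -0.63. The count over all genes moved with these fits as well. It was 732 without DBA/2J day 5 replicate 4, and in the other fits of this paragraph it was below the 264 of the main fit. The part of tendon tissue in the collagen result was not tested.

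On HFD the median of the matrix genes was 0.05, and the strains lay on both sides of it. C57Bl/6J had a median of -0.18 on HFD, DBA/2J of -0.31 and BALB/cJ of 0.61. Their HFD sums were 2871 to 4781 CPM on day 33 and 3406 to 4748 CPM on day 5 for C57Bl/6J, 3189 to 3703 and 3050 to 7654 CPM for DBA/2J, and 3616 to 4438 and 1765 to 4309 CPM for BALB/cJ. The difference between the diets was tested for every gene: 78 genes (0.572%) differed, with RC minus HFD positive for 37 (0.271%) and negative for 41 (0.301%). Of the 34 matrix genes, 7 were among the 41: Col3a1, Col4a1, Col4a2, Col5a1, Col6a3, Col15a1 and Fbn1. The summed level of the list was 1396 to 4481 CPM on day 33 (median 3592) and 2181 to 9044 CPM on day 5 (median 6338) on RC, and 2871 to 4781 CPM on day 33 (median 3644) and 1765 to 7654 CPM on day 5 (median 3712) on HFD. The medians of the diets lay close together on day 33 and apart on day 5. Summed tendon markers on HFD had medians of 580 CPM on day 33 and 391 CPM on day 5, against 673 and 934 CPM on RC. Their day 5 ranges overlapped, with 184 to 1303 CPM on HFD and 75.6 to 1403 CPM on RC. Of the 11 tendon and cartilage markers, 0 passed the test between diets, and a difference of the sums between diets was not tested. With the range of animal numbers as a covariate 23 genes differed between the diets, and with 1 RC animal left out 18 to 381 did, the lowest without DBA/2J day 33 replicate 1 and the highest without DBA/2J day 5 replicate 4.

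Col4a1 and Col4a2, the chains of the basement membrane collagen, were among the 6 genes of smallest p for the difference between diets. The genes lie head to head on opposite strands of chromosome 8, with 20 bases between their RefSeq starts and first exons that overlap by 22 bases. The stretch is printed because the 2 transcripts that start in it had nearly the same log2 difference on RC. Bases between the starts are in capitals (GRCm38.p6, plus strand).
Col4a1 and Col4a2, chr8:11312801-11312830: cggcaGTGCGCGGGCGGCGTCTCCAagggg
Col4a1 stood at 6.91, 7.77 and 8.10 log2 CPM on day 33 and at 7.52, 8.13 and 8.62 on day 5 on RC, a log2 difference of -0.51 ± 0.11 (SE, limma adjusted p = 0.00795). On HFD it was 0.35 ± 0.11 (SE), so the diets differed by -0.86 ± 0.16 (SE, limma adjusted p = 0.00439). Col4a2 had -0.50 ± 0.11 on RC and 0.28 ± 0.10 on HFD, a difference of -0.78 ± 0.15 (SE, limma adjusted p = 0.00562). The other 4 genes of this group had smaller differences on RC than on HFD. Slc41a3, a magnesium transporter, had -0.13 on RC and 0.71 on HFD. Grb14, an inhibitor of the insulin receptor, had 0.15 on RC and 0.65 on HFD, and the phosphatases Ptprg and Ptpn4 had -0.12 each on RC and 0.49 and 0.54 on HFD. None of these 4 passed for day 33 minus day 5 on RC.

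**Figure D4:**
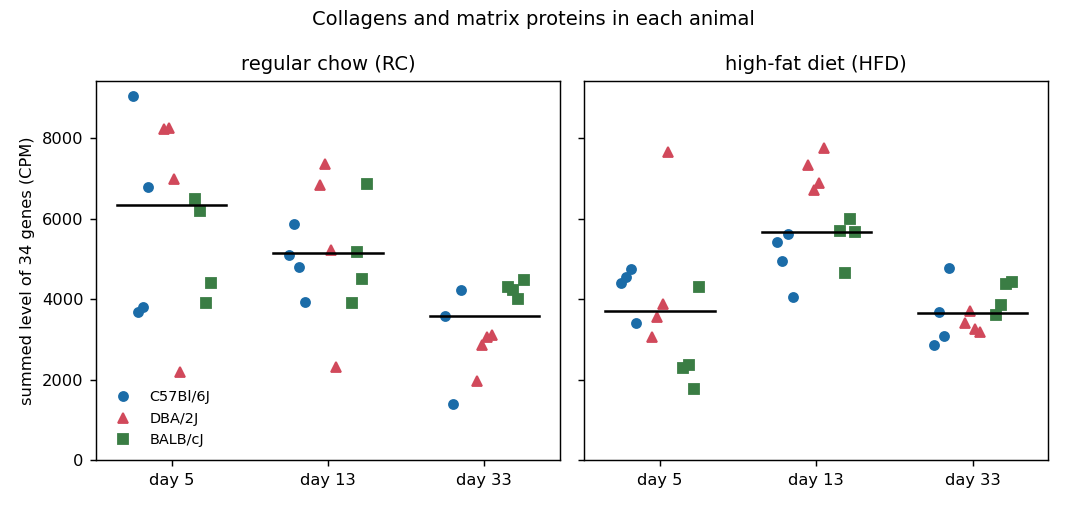
Summed level of the 34 collagen and matrix genes (CPM, vertical) in each soleus library by day, on regular chow left and on high-fat diet right, with strains by colour and the median of all animals of a day as a black bar. On regular chow the medians are 6338, 5136 and 3592 CPM on days 5, 13 and 33, and on high-fat diet 3712, 5674 and 3644 CPM.

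Day 13 on RC divides the interval. The list's median was -0.07 for day 13 minus day 5, where 282 genes (2.07%) passed, and -0.61 for day 33 minus day 13, where 638 genes (4.68%) passed. Both comparisons share animals with the main one, so their values stand side by side only. None of the 12 RC animals of day 13 lies in the lowest number range, which holds 15 of the 23 animals of days 33 and 5, so these steps and the number range cannot be told apart within DBA/2J. With the range as a covariate, which was added after seeing the data, 58 genes passed for day 13 minus day 5 and 36 for day 33 minus day 13, and the medians of the matrix list were -0.22 and -0.48. Col3a1 had -0.41 to day 13 and -0.85 after it, and Col5a3 had 0.05 and -0.91. Tfrc, the transferrin receptor that takes up iron, had 0.07 to day 13 and -1.04 after it. Over the whole interval Tfrc fell by 0.97 (SE 0.23, limma adjusted p = 0.0151), with 5.12, 6.70 and 7.83 log2 CPM on day 33 and 6.48, 7.50 and 8.71 on day 5. On HFD Tfrc had -0.25, and the difference between diets did not pass (limma adjusted p = 0.256).

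Of 18 measured imprinted growth genes, 5 were lower on RC and 0 higher, against 0.931% of all genes lower. Another 10 were below 0 and 3 above 0 without passing, with a median log2 difference of -0.33 on RC and -0.36 on HFD. Rian (ENSMUSG00000097451.10, chromosome 12, 109603940 to 109661716), a maternally expressed noncoding RNA of the Dlk1 and Meg3 region, stood at 1.95, 2.44 and 3.72 log2 CPM on day 33 and at 2.86, 3.40 and 4.33 on day 5. Its log2 difference was -1.01 ± 0.14 (SE, limma adjusted p = 8.96e-06), -0.69 on HFD, and the days did not overlap in DBA/2J or BALB/cJ. Cdkn1c, an inhibitor of cell division, fell by 0.55 (limma adjusted p = 0.00859) and Igf2, the fetal growth factor, by 0.32 (limma adjusted p = 0.00947). Plagl1, a zinc finger regulator of other imprinted genes, fell by 0.72 and Mest by 0.84. Plagl1 lost the threshold in 9 of the 23 fits. C57Bl/6J had an Igf2 difference of -0.65, DBA/2J of -0.01 and BALB/cJ of -0.30 (limma adjusted p of the difference between strains = 0.276). In C57Bl/6J, replicate 1 of day 5 held the highest Igf2 (6.12) and Rian (4.33) of all 23 animals. With the libraries of lowest tendon markers left out, 3 imprinted genes passed and Igf2 and Plagl1 did not.

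Single genes of growing muscle passed. Myh8, the myosin of newborn muscle, fell by 0.77 on day 33 (limma adjusted p = 0.0232), with 2.02, 2.72 and 3.10 log2 CPM on day 33 and 2.52, 3.51 and 4.91 on day 5. It was 1 of 13 measured developing and regenerating muscle genes to pass, against 1.94% of all genes. The median of these 13 was -0.009, with 7 differences below 0 and 6 above. Myh8 lost the threshold in 2 of the 23 fits that each left out 1 animal. It also lost it with the libraries of lowest tendon markers left out, and within the lowest number range. Of 18 measured cell cycle genes 1 was lower, against 0.931% of all genes: Kif11, a spindle motor (-0.66). The list's median was -0.20. The 9 satellite cell markers had a median of -0.20 with none past the threshold, and 8 of them were below 0. Kif11 had levels of -1.32 to 1.08 log2 CPM on day 33 and -0.09 to 1.49 on day 5, near 1 CPM, and lost the threshold in 10 of the 23 fits.

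Contractile genes of the slow fibre did not pass in either direction by limma (0 of 13, 1 at an unadjusted p under 0.05, median 0.02). Of 15 fast fibre genes, 1 passed, against 1.94% of all genes. Casq1, the calcium store protein of the fast sarcoplasmic reticulum, fell by 0.35 (limma adjusted p = 5.52e-04). It stood at 9.57, 9.93 and 10.29 log2 CPM on day 33 and at 9.92, 10.33 and 10.65 on day 5. The median of the fast list was -0.21, and its summed level was 44149 to 66824 CPM on day 33 and 49816 to 68851 CPM on day 5. With the left-out fast library kept in the fit, Casq1 did not pass.

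Metabolic lists held 0 to 2 members past the threshold each, against 1.94% of all genes. Of 18 genes of mitochondrial fatty acid oxidation, Ech1, an auxiliary enzyme for unsaturated fatty acids, was higher (0.29 ± 0.07, SE, limma adjusted p = 0.0107), and 16 of the 18 differences were above 0 with a median of 0.13. None of 33 nuclear-encoded respiratory chain genes passed, with a median of 0.04. Of 25 genes of glucose uptake, glycolysis and glycogen, Ldhb, the lactate dehydrogenase subunit of oxidative tissue, rose by 0.26 and the glycogen branching enzyme Gbe1 by 0.20. Of 23 cholesterol genes, Fdft1, which makes squalene, rose by 0.32, but it shares 18.3% of its exon bases with Ctsb on the opposite strand. Calr and Manf, proteins of the endoplasmic reticulum, were the 2 of 19 genes of the unfolded protein response that passed, lower by 0.18 and 0.37. Alas2, the haem synthesis enzyme of red cell precursors, was 1 of 6 erythroid markers to pass and fell by 0.62. All 6 were below 0 with a median of -0.49, and 5 had an unadjusted p under 0.05 by limma. Their median was -0.92 in DBA/2J, -0.20 in C57Bl/6J and -0.19 in BALB/cJ. The erythroid sum was 184 to 464 CPM on day 33 and 161 to 933 CPM on day 5. Manf, Ldhb, Alas2 and Gbe1 lost the threshold in 16, 9, 6 and 3 of the 23 fits. Ech1, Gbe1 and Ldhb did not pass with the left-out fast library kept in the fit. Ech1 and Ldhb also did not pass with the libraries of lowest tendon markers left out.

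Markers of white adipocytes had a median of -0.49 with 0 of 10 passing, and sums of 386 to 833 CPM on day 33 and 321 to 1167 CPM on day 5. B cell markers had a median of 0.83 with 0 of 8 passing, and their sums of 2.44 to 61 CPM on day 33 and 2.92 to 72.9 CPM on day 5 overlapped. T and natural killer cell markers were at sums of 0.474 to 14.5 CPM on day 33 and 0.294 to 19.3 CPM on day 5.

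Kctd3, a member of the family with a potassium channel tetramerization domain, separated the days completely. It stood at 3.86, 3.96 and 4.11 log2 CPM on day 33 and at 4.15, 4.34 and 4.49 on day 5, a log2 difference of -0.34 ± 0.04 (SE, limma adjusted p = 9.4e-07). On HFD its difference was also -0.34. Over all genes, 2 (0.0147%) separated all 11 animals of day 33 from all 12 of day 5, and 11 (0.0807%) separated the days within all 3 strains in 1 direction, of which 9 were past the threshold. The other gene of the pair was Atmin, a regulator of a dynein light chain, at 0.26 ± 0.04 (SE) on RC and 0.03 on HFD. Beside Kctd3, Atmin, Tsga10 and Il15, the 9 were Hacd1, a fatty acid elongation enzyme of muscle (-0.54), Galnt17, a glycosyltransferase (-0.48), the membrane raft protein Rftn1 (-0.36), Tmem192 (0.26) and Hp1bp3 (0.12), which except for Kctd3, Tsga10 and Il15 were chosen after their values were seen.

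Strains were then compared. Within DBA/2J 242 genes (1.77%) passed, 162 higher and 80 lower, within BALB/cJ 17 (0.125%), 5 higher and 12 lower, and within C57Bl/6J 0 (0%). In C57Bl/6J the smallest limma adjusted p was 0.0501, and 1238 genes had an unadjusted p under 0.05. These counts do not show that the strains differ. The test of the difference between the strains passed for 25 genes (0.183%), with 10 to 101 when 1 animal was left out, the highest without BALB/cJ day 5 replicate 4. With DBA/2J day 5 replicate 4 left out the DBA/2J count was 737, and with any 1 of the other 7 DBA/2J animals left out it was 71 to 146. With the left-out C57Bl/6J library kept, the C57Bl/6J count was 408, the DBA/2J count 106 and the BALB/cJ count 4.

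The 6 genes of smallest p for the difference between strains had their largest difference in DBA/2J. Esrrg (ENSMUSG00000026610.13, chromosome 1, 187608791 to 188214885), a nuclear receptor that promotes oxidative metabolism in muscle, stood at 7.52, 7.51, 7.38 and 7.63 log2 CPM in DBA/2J on day 33 and at 5.94, 5.68, 5.79 and 6.12 on day 5. This was a log2 difference of 1.63 ± 0.20 (SE), against -0.09 ± 0.21 in C57Bl/6J and 0.24 ± 0.20 in BALB/cJ (limma adjusted p of the difference between strains = 7.13e-04). DBA/2J had the lowest levels of the 3 strains on day 5 and the highest on day 33. On day 13 DBA/2J already averaged 7.37 ± 0.27 (SD, n = 4). On HFD DBA/2J averaged 6.91 ± 0.11 on day 33 and 6.02 ± 0.53 on day 5, C57Bl/6J 7.62 ± 0.34 on day 33 and 6.62 ± 0.15 on day 5, and BALB/cJ 7.12 ± 0.21 on day 33 and 6.82 ± 0.34 on day 5 (SD, n = 4 each). Esrrg was thus higher on day 33 in the means of C57Bl/6J on HFD as well, which were not tested within the strain.

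Zfp462, a zinc finger protein of chromatin, stood at 4.58, 5.04, 5.57 and 4.91 log2 CPM in DBA/2J on day 33 and at 3.91, 3.70, 3.79 and 3.58 on day 5. Its log2 differences were 1.28 in DBA/2J, -0.52 in C57Bl/6J and 0.04 in BALB/cJ (limma adjusted p between strains = 0.0196). Samd4, an RNA-binding regulator of translation, had 0.90, -0.25 and 0.10 in the same order of strains, and Gsk3b, a kinase of insulin and Wnt signalling, had 0.49, -0.14 and -0.10 (limma adjusted p between strains = 0.00596 for each). Pdzrn3, a ubiquitin ligase of muscle and synapse, had 0.91, 0.14 and 0.15, and the phosphodiesterase Pde7b 0.60, -0.10 and -0.15 (limma adjusted p between strains = 0.0243 for each). In each of these 6 genes the DBA/2J animals of the days did not overlap. The genes were picked by p from these same values, so this separation is no separate support. The share of all genes without overlap in DBA/2J was not counted. The call between strains was lost in 8 of the 23 fits that each left out 1 animal for Pde7b (limma adjusted p up to 0.104), in 7 for Pdzrn3 (up to 0.109), in 2 for Zfp462 (up to 0.0998) and in 1 for Gsk3b (0.0545). Hbb-bt, an adult beta globin with near-identical copies, fell by 1.16 in DBA/2J on day 33 (limma adjusted p = 0.0153), and its reads may be shared with its copies. In BALB/cJ, Klhdc1 rose by 0.53 and Ewsr1, an RNA-binding protein, fell by 0.37 (limma adjusted p = 0.0402 and 0.0393).

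**Figure D5:**
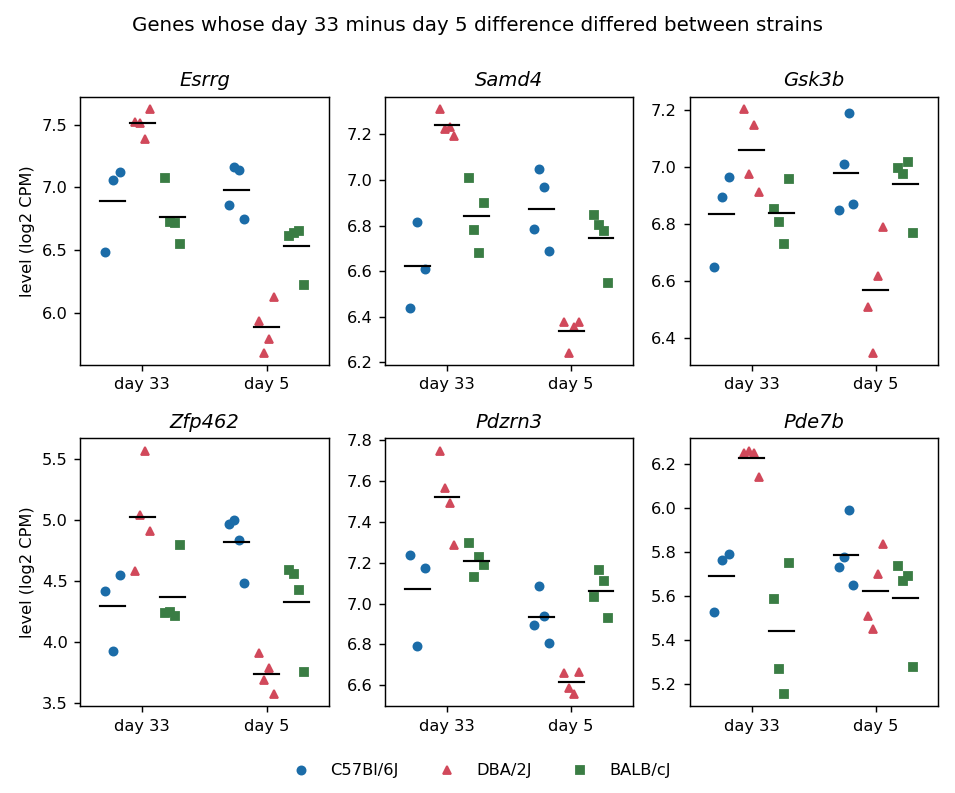
Log2 CPM (vertical) of the 6 genes of smallest p for the difference between strains, in each soleus library on regular chow, day 33 left and day 5 right in each panel, with strain means as black bars. The 4 DBA/2J animals of day 33 lie above the 4 of day 5 in every panel, for Esrrg at 7.38 to 7.63 against 5.68 to 6.12. The genes were picked from these same values.

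The same days on RC in liver and visceral adipose tissue, whose tables were normalized separately, had 84 genes (0.666%) and 3 genes (0.0181%) past the threshold. Of the genes named here, 51 were measured in liver and 56 in adipose tissue, and 0 passed in either by limma (13 in liver and 5 in adipose tissue had an unadjusted p under 0.05). Col3a1 had log2 differences of -0.69 in liver and -0.27 in adipose tissue, and Cyfip2 0.30 and -0.68. Of the collagen and matrix list, 30 members were measured in liver and 34 in adipose tissue, with medians of -0.18 and -0.02 and 0 past the threshold (9 and 0 at an unadjusted p under 0.05). A difference between tissues was not tested.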

How the data were processed

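The labels' protocols name an RNeasy Plus micro kit for RNA and a stranded mRNA library kit with single-read sequencing. STAR 2.5.3a, edgeR and the build GRCm38 stand in the submitters' processing notes, with no role or order. Which program counted reads, with which strand setting and which filter on low counts, was not given in the sources used here. Reads of all 3 strains were set against 1 build. The authors deposited log2 CPM values for 72 soleus libraries, scaled by a library size of each library, in which 0 reads stand at -3.74. With a prior of 2 reads, worked out from the values, every value under 2000 reads came out whole within 0.05 reads, and this gave the depths. The header is 1 cell short, and each title was read as naming the column to its right.

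Computation started from those values, with R 4.3.3 and limma 3.58.1. The filter, log2 CPM of at least 0 in at least 4 libraries, removed 0 of 13637 genes. Symbols and coordinates of 13624 genes came from GENCODE, and promoters from RefSeq, where 46 of the 58 named genes had a window. A single fit with a variance trend covered 71 libraries and 18 group means (strain, diet and day), with 53 residual and 3.66 prior degrees of freedom. Contrasts were day 33 minus day 5 on RC with the strains weighted equally, the same within each strain, its difference between strains (F test), RC minus HFD, and both steps through day 13. Two-sided p-values were adjusted over all genes (Benjamini-Hochberg) with a threshold of 0.05. Errors are standard errors of the fit, or SD over animals where marked. Each library is 1 animal, so p-values measure the spread between these animals. The fit was also run on simulated data, with independent normal errors of a single spread per gene. Those data hold no divergent libraries, so the run tells nothing about counts that move with single animals.

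Genes of at least median level were named by rank: the 12 highest and 12 lowest past the threshold with 1 sign in all strains. From the same genes came up to 3 per direction within a strain, and 6 each for the tests between strains and between diets. Per list, up to 4 of smallest p past the threshold were named at any level. Of the 48 named genes past the threshold, 7 lay below the median level. Members and lists were chosen with earlier results of these data known.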

Additional observations from a re-analysis of the deposited data

Results flagged for a closer look

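In groups of 4 animals, a value was singled out when its gap to the nearest other animal, divided by the range of the group (the Dixon ratio), was above Dixon's critical value for 4 animals. Of 290 gene and group pairs 31 (10.7%) were, where chance gives about 1 in 20, and the 3 C57Bl/6J animals of day 33 were too few to be tested. DBA/2J day 5 replicate 4 held 13 of the 31. It was the lowest of its group for Col1a1 (ratio 0.833), Col3a1 (0.921), Col5a1 (0.965), Fbn1 (0.859), Col6a3 (0.958), Col6a2 (0.981), Adamts2 (0.915), Serpinh1 (0.915), P3h1 (0.84), Ptprg (0.854) and Calr (0.845), and the highest for Ewsr1 (0.839) and Ldhb (0.909). Its Col1a1 stood at 6.99 log2 CPM, against 10.15 to 10.79 in the other 3 animals. This library also had the lowest tendon marker sum of day 5, 75.6 CPM, and the part of that in its values was not tested. DBA/2J day 5 replicate 2 was lowest for Samd4 (0.834).

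Among DBA/2J animals of day 33, replicate 1 was highest for Gabarapl1 (0.97) and lowest for Col1a1 (0.97), replicate 2 was lowest for Rian (0.838), replicate 3 highest for Hbb-bt (0.883) and replicate 4 lowest for Pde7b (0.889). Among BALB/cJ animals of day 33, replicate 4 was lowest for Ccdc85a (0.879) and Igf2 (0.853) and highest for Col6a3 (0.887) and Zfp462 (0.944), and replicate 1 was lowest for Col4a1 (0.9). Among BALB/cJ animals of day 5, replicate 4 was lowest for Ccdc85a (0.919), Esrrg (0.912) and Pde7b (0.855), and replicate 3 lowest for Col6a2 (0.848). Among C57Bl/6J animals of day 5, replicate 1 was highest for Rian (0.856) and Igf2 (0.83), and replicate 2 highest for Klhdc1 (0.917).

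The difference of day 33 minus day 5 itself differed between strains for Esrrg (limma adjusted p = 0.000713), Samd4 and Gsk3b (0.00596 each), Zfp462 (0.0196), and Pdzrn3 and Pde7b (0.0243 each). It differed between RC and HFD for Slc41a3 and Col4a1 (0.00439 each), Col4a2 and Grb14 (0.00562 each), Ptprg and Ptpn4 (0.00879 each), Col3a1 (0.0301), Fbn1 (0.0371), and Col5a1 and Col6a3 (0.0499 each).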

How the results depend on the processing

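No paired analysis was possible because no animal number is shared between the days within a strain. Of 48 named genes past the threshold, 29 passed in all 23 fits that each left out 1 RC animal, 14 passed in every other alternative run for them, and 0 changed direction in any fit. The most losses from 1 animal were 14 genes without C57Bl/6J day 5 replicate 1 and 12 without C57Bl/6J day 33 replicate 3. Leaving out 1 animal gave 152 to 732 genes over the 3 strains, 0 to 7 within C57Bl/6J, 71 to 737 within DBA/2J, 8 to 48 within BALB/cJ, 10 to 101 between strains and 18 to 381 between diets. The count within BALB/cJ was 48 without its day 5 replicate 4. Between diets it was 351 without that animal and 157 without C57Bl/6J day 33 replicate 4, and it lay between these without BALB/cJ day 33 replicate 4.

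A fit of the compared animals alone gave 134 genes over the strains, 131 within DBA/2J and 3 within BALB/cJ, and a fit of day 5 and day 33 of both diets gave 12 between diets. Array weights gave 1543 over the strains, 53 within C57Bl/6J, 1595 within DBA/2J, 1862 within BALB/cJ, 1554 between strains and 1953 between diets. Equal weights per animal, on RC alone, gave 130, and the lowest range of animal numbers, without C57Bl/6J, gave 129, of which 60 were among the 264. With the fast library kept, 408 passed within C57Bl/6J, 106 within DBA/2J, 4 within BALB/cJ and 46 between strains. In that fit 9 of the 48 named genes lost the threshold over the strains. They were Pcp4l1, Amy1, Gabarapl1, Esrrg, P3h1, Casq1, Ech1, Gbe1 and Ldhb. Genes of at least median level gave 4 within C57Bl/6J, 7 within BALB/cJ and 11 between strains. Quantile normalization gave 8 within C57Bl/6J and 9 within BALB/cJ, with 187 higher and 123 lower over the strains. A prior of 0.5 reads gave 51 between diets, and the number range as a covariate gave 31 within BALB/cJ and 23 between diets. An alternative chosen after seeing the data left out 5 libraries whose tendon markers summed to under 200 CPM, and gave 239 over the strains (114 higher and 125 lower), 5 within C57Bl/6J, 390 within DBA/2J and 40 between diets. The causes were not tested. Dropping the variance trend kept every count within 1.5 times its value above. The filter removed 0 genes, so the fit without it was the same fit and tells nothing about filtering. For the steps through day 13 only the number range as a covariate was tried, after seeing the data, and gave 58 genes for day 13 minus day 5 and 36 for day 33 minus day 13. Depth limits genes near 1 CPM, such as Kif11.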

Other observations

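Further lists had 0 members past the threshold on RC by limma. The 16 genes of muscle atrophy had a median log2 difference of 0.08 (3 at an unadjusted p under 0.05), the 14 of the neuromuscular junction -0.04 (1), the 19 glucocorticoid-induced genes -0.09 (0), the 22 heat shock genes 0.01 (2), the 22 immediate early genes -0.10 (1) and the 25 interferon-stimulated genes -0.01 (0). For fatty acid synthesis 14 of 16 differences were below 0 (median -0.28, 2 at an unadjusted p under 0.05), and for lipid uptake, storage and lipolysis 15 of 20 were above 0 (median 0.13, 6). All 7 measured mitochondrially encoded genes were above 0, with a median of 0.13 (0 at an unadjusted p under 0.05).

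Outside the matrix list, Clock and 3 slow fibre genes differed between the diets, and they were chosen after their values were seen. Clock, which drives the circadian loop with Arntl, had -0.04 on RC and 0.56 on HFD (limma adjusted p of the difference = 0.0260). Time of sampling within the day is not in the labels. The slow fibre genes Myl2, Tnni1 and Tnnc1 had 0.07, 0.06 and 0.06 on RC and -0.45, -0.47 and -0.54 on HFD. These 3 of 13 slow fibre genes passed the test between diets, against 0.271% of all genes in that direction. None of the 15 fast fibre genes did. On HFD the median was -0.37 for the slow list and -0.32 for the fast list, against 0.02 and -0.21 on RC. BALB/cJ day 33 replicate 3 had a sum of 789.5 CPM for Schwann cell and nerve markers, against 112 to 168 CPM in the other 10 animals of day 33 and 126 to 330 CPM on day 5.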
